A study of Arabidopsis thaliana with 8 samples.

Results

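The probe sets described here form the block of the Affymetrix ATH1 array that was laid out for the genomes of the 2 organelles, the chloroplast and the mitochondrion. They were taken by their identifiers, as all probe sets whose number lies from 244901 to 245050, which gave 150 of the 22810 probe sets in the table, or of the 22746 that are not hybridization controls. The annotation placed 77 of the 150 on the chloroplast genome, 69 of them with 1 gene and 8 with both copies of a gene of the inverted repeat, which are counted but not named. Another 12 carried the symbols of mitochondrial genes, 45 were not annotated in the tables used here and 1 was paired with several genes. The remaining 15 went against the name of the block, because the annotation placed them on nuclear chromosome 2. Of these, 5 lay at loci that begin with AT2G07, a region known to hold an insertion of mitochondrial DNA, and 10 lay at loci that begin with AT2G26. Those 10 lay in the run of identifiers from 245027 to 245046, which held 10 more that were not annotated and no organelle gene, and they are treated as nuclear. RefSeq lists 78 plastid protein-coding gene symbols, of which 69 had a probe set of their own and 7 were read by probe sets for 2 copies.

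Transcript levels were compared in whole *Arabidopsis thaliana* seedlings of 2 genotypes, *Ler* as the wild type and *hy5-1*, a mutant of the light-signalling transcription factor HY5 in the *Ler* background. Seeds were sown on medium with 0 or 50 µM MeJA, the methyl ester of the hormone jasmonic acid, and kept for 4 days in continuous FR light at 1.5 µmol m-2 s-1 or in darkness. By the study's general growth methods, all seeds first had cold in darkness and then a period of white light. Each of the 8 conditions (*Ler* or *hy5-1*, FR light or darkness, 0 or 50 µM MeJA) was read by 1 array, so that a ratio between 2 arrays had no replicate check. The question was how the organelle transcripts responded to MeJA and to the loss of HY5 in each light.

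Chloroplasts and mitochondria keep small genomes of their own. Most chloroplast genes lie in operons that are copied as long shared transcripts and then cut, and 2 kinds of RNA polymerase read them. One is a bacterial-type enzyme whose core subunits are encoded by the chloroplast genes *rpoA*, *rpoB*, *rpoC1* and *rpoC2* and whose sigma factors come from the nucleus, and the other is a phage-type enzyme encoded in the nucleus. The chloroplast genes encode subunits of the photosystems, the cytochrome b6f complex, ATP synthase, the NDH complex, Rubisco and the chloroplast ribosome, and most of the mitochondrial genes measured here serve the respiratory chain. In darkness plastids stay etioplasts, and HY5 is best known for promoting the light-grown form of the seedling.

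The deposited values were log2 values centred on each probe set's median, at 0 over the 4 FR arrays and separately over the 4 dark arrays. They therefore gave ratios within each light, but no level of a transcript and no difference between FR light and darkness. As a check of the treatment labels, the jasmonate-responsive nuclear gene *JRG21* was higher with MeJA in all 4 pairs, with log2 ratios from 8.02 to 8.98. The annotation named no probe set for *HY5*, so the mutated gene itself was not checked. Ratios for MeJA and for genotype within a light used the same 4 arrays and are not independent of each other. In RNA from whole seedlings, fewer or smaller plastids and less RNA per plastid cannot be told apart.

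In FR light, chloroplast transcripts as a set were lower with MeJA in both genotypes. In *Ler*, 68 of the 77 chloroplast probe sets were lower with MeJA and the median log2 ratio was -0.49, against -0.06 over all probe sets. In *hy5-1*, 73 of the 77 were lower and the median was -0.62, against -0.09 over all probe sets. Both pairs pointed down for 66 of the 77 (85.7%), whereas 38.3% of all probe sets were lower in both FR pairs. *petD* and *petN*, which encode 2 subunits of the cytochrome b6f complex, were the only chloroplast probe sets that were higher with MeJA in both.

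The shift was broad and mostly shallow. A fold of at least 2 downward was reached by 13 of the 77 in *Ler*, that is 16.9% against 11.2% of all probe sets, and by 15 in *hy5-1*, that is 19.5% against 13.4% of all probe sets. No chloroplast probe set was 2-fold higher with MeJA in FR light, whereas 12.8% of all probe sets were in *Ler* and 11.2% in *hy5-1*. At least 2-fold lower in both pairs were 4 of the 77 (5.19%, against 4.41% of all probe sets), and in either pair 24 (31.2%, against 20.2% of all), so the overlap of the genotypes was near that of the whole table. The 4 were *petG*, *ndhF*, *ycf4* and a probe set for both copies of a ribosomal protein gene, whose log2 ratios were -1.67 in *Ler* and -2.01 in *hy5-1*.

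**Figure D1:**
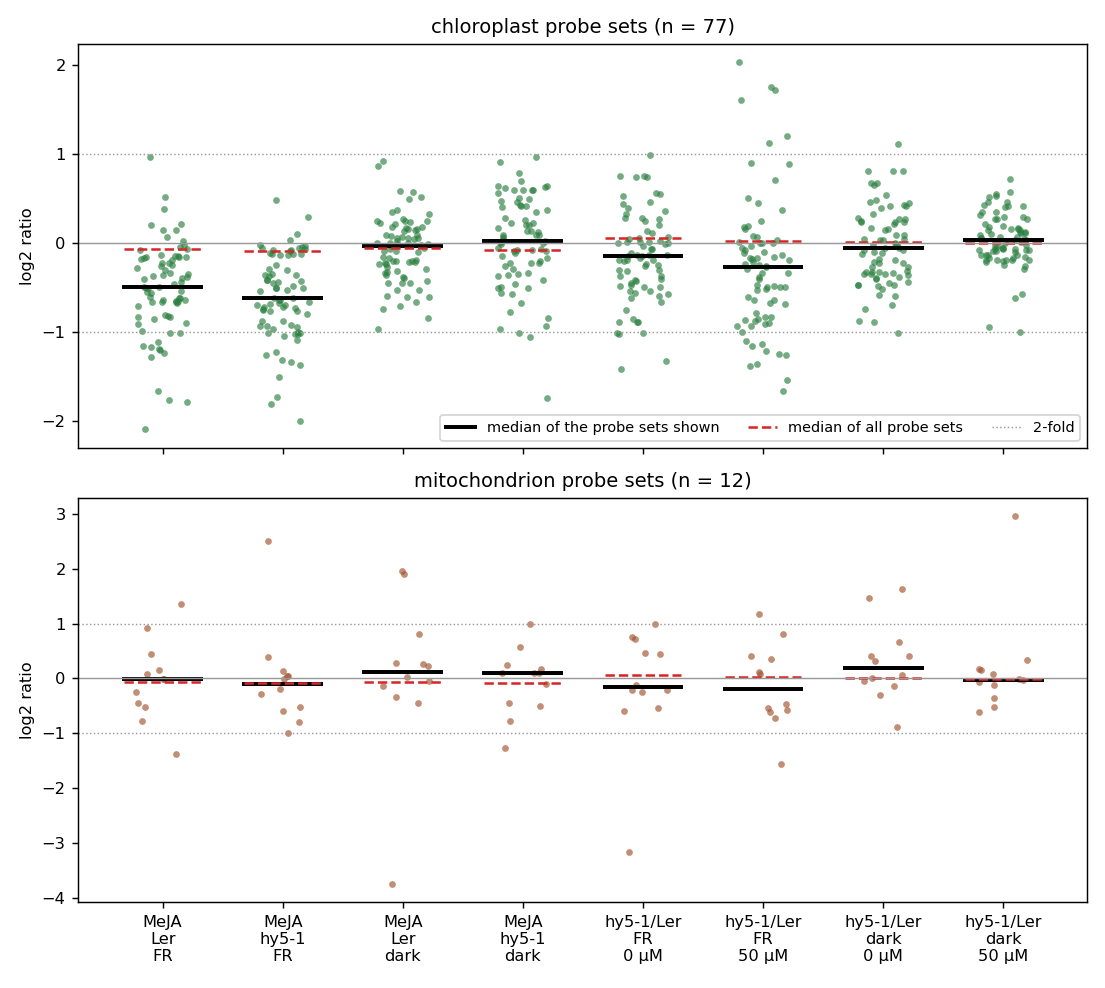
Log2 ratios (vertical axis) of the 77 chloroplast probe sets (top) and the 12 mitochondrial probe sets (bottom) in 8 comparisons between arrays of the same light, each point being 1 probe set. The black line is their median, the dashed red line the median of all 22746 probe sets and the dotted lines mark 2-fold; the chloroplast median lay at -0.49 and -0.62 for MeJA in FR light and within 0.03 of 0 in the dark.

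In darkness, the same probe sets showed no common direction. With MeJA, 43 of the 77 were lower in *Ler* (median log2 ratio -0.03) and 35 in *hy5-1* (median 0.03). None was 2-fold lower in *Ler*, where 13.1% of all probe sets were, and none was 2-fold higher, where 11.2% of all probe sets were. In *hy5-1*, 3 (3.9%) were 2-fold lower, against 16.1% of all probe sets, and none was 2-fold higher, against 12.2% of all. The 3 were *psbA*, *rps14* and a probe set for 2 gene copies. The mean MeJA ratio of the FR pairs lay below that of the dark pairs for 72 of the 77 (93.5%), against 52.1% of all probe sets. The pattern of lower in both FR pairs and higher in both dark pairs was seen in 19 of the 77 (24.7%), against 5.04% of all probe sets. More of the 77, 26 (33.8%, against 21% of all probe sets), were lower with MeJA in all 4 pairs. Higher in all 4 pairs was 1 (1.3%, against 14.6% of all). In limma, the difference of the MeJA effect between the lights was called for none of the 22746 probe sets, and 5 of the 77 (6.49%, against 7.87% of all) had an unadjusted p under 0.05. With 1 residual degree of freedom that fit found none of the changes planted in simulated data, so it could not have detected the difference.

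Within FR light, all 4 arrays departed from the rest of the table in how often they were the lowest or the highest. The median of the 77 chloroplast values was 0.26 on the FR array of *Ler* without MeJA, -0.07 with MeJA, 0.08 for *hy5-1* without MeJA and -0.29 with MeJA. The array of *hy5-1* with MeJA was the lowest of the 4 FR arrays for 50 of the 77 (64.9%), against 27.3% of all probe sets. The array of untreated *Ler* was the highest for 45 (58.4%), against 22.8% of all. *Ler* with MeJA was the lowest for 20 (26%, against 28.8% of all) but the highest for only 5 (6.49%, against 21.3% of all). Untreated *hy5-1* was the highest for 26 (33.8%, against 31.3% of all) but the lowest for only 4 (5.19%, against 20.3% of all). Setting the median of each array to 0 left 59 of the 77 lower in both FR pairs, and quantile normalization left 58.

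Among the photosystem genes, only *psbA* was called for MeJA in limma. It encodes D1, the reaction-centre protein of photosystem II. In FR light its values were 1.26 in *Ler* and 0.07 with MeJA, and -0.07 in *hy5-1* and -0.87 with MeJA. In darkness they were 0.53 in *Ler* and -0.22 with MeJA, and 0.22 in *hy5-1* and -0.79 with MeJA. The MeJA value lay below the untreated one in each of the 4 pairs, with log2 ratios of -1.19, -0.80, -0.74 and -1.01. Over the 4 pairs the mean log2 difference was -0.93 (SE 0.15, n = 4 pairs), with an adjusted p of 0.0473 in limma. This was the only chloroplast probe set that the MeJA model called, at a threshold of 0.05 after Benjamini-Hochberg adjustment over all probe sets. *petG* had a larger mean difference, -1.02 (SE 0.25, n = 4 pairs), with an adjusted p of 0.105 in limma. Among all probe sets, 2.7% were called higher and 1.68% lower, so the 1 call among the 77 was near the share of all. The call was close to its limit, since the adjusted p was 0.058 after quantile normalization, 0.054 with array medians set to 0 and between 0.145 and 0.16 with any 1 of the 4 pairs left out. At an unadjusted p under 0.05, 13 of the 77 (16.9%) passed, each of them lower, against 23.8% of all probe sets.

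The other photosystem II genes were lower with MeJA in FR light in nearly every case, 14 of the 15 in *Ler* (median -0.40) and 15 of the 15 in *hy5-1* (median -0.67), both counts including *psbA*. The exception was *psbM*, a small subunit, at 0.15 in *Ler*. The antenna protein CP47, encoded by *psbB*, had FR values of 1.35 in *Ler*, 0.06 in *Ler* with MeJA, -0.06 in *hy5-1* and -0.57 in *hy5-1* with MeJA. Untreated *Ler* was thus far above the other 3 arrays. The second reaction-centre protein D2, encoded by *psbD*, showed another pattern, with FR values of 0.41, 0.01, -0.01 and -1.23 in the same order. Here the *hy5-1* array with MeJA lay apart, and the log2 ratio for MeJA was -0.40 in *Ler* and -1.23 in *hy5-1*.

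All 7 photosystem I probe sets, with the assembly factors counted in, were lower with MeJA in FR light in both genotypes, with medians of -0.46 in *Ler* and -0.54 in *hy5-1*. The reaction-centre genes *psaA* and *psaB* lie next to each other, and in *Ler* both had a log2 ratio of -0.15. In *hy5-1* they parted, at -0.96 for *psaA* and -0.07 for *psaB*. *ycf4*, which encodes an assembly factor of photosystem I, was lower by more than 2-fold in both, at -1.01 and -1.31. In darkness the medians of the 7 were 0.06 and 0.14.

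The cytochrome b6f complex, which carries electrons between the photosystems, was the least uniform of the photosynthetic groups. With MeJA in FR light 4 of its 6 probe sets were lower in each genotype. The small subunit gene *petG* had FR values of 1.10 in *Ler*, -0.09 with MeJA, 0.09 in *hy5-1* and -1.63 with MeJA, so both MeJA arrays lay below their untreated partners by more than 2-fold (-1.20 and -1.73). Its neighbour *petL*, another small subunit, was at -0.66 and -1.25. By contrast, *petB*, which encodes cytochrome b6, differed little, at -0.15 and -0.05.

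ATP synthase and the NDH complex, which passes electrons back to the plastoquinone pool, had lower medians in *hy5-1* than in *Ler*. So had both photosystems and the cytochrome b6f complex (-0.33 in *Ler* and -0.39 in *hy5-1*), and this difference between genotypes was not tested. For the 6 ATP synthase probe sets the median MeJA ratio in FR light was -0.08 in *Ler* and -0.74 in *hy5-1*. The genes of the *atpI-atpH-atpF-atpA* cluster carried this, at -0.92, -0.72, -1.04 and -0.76 in *hy5-1*, whereas *atpB* and *atpE*, which lie elsewhere, were at -0.07 and -0.13. For the 11 NDH probe sets the medians were -0.39 and -0.62. *ndhF*, a membrane subunit, had FR values of 0.50 and -0.50 in *Ler* and 0.91 and -0.60 in *hy5-1*, without and with MeJA, and log2 ratios of -1.01 and -1.51. The gene for the large subunit of Rubisco, *rbcL*, was little lower with MeJA in FR light (-0.28 and -0.12) and higher in darkness (0.50 and 0.92).

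Genes of the chloroplast gene expression machinery were lower as well. All 20 ribosomal protein probe sets were lower with MeJA in *Ler* in FR light (median -0.75, 6 at 2-fold), and 19 of the 20 in *hy5-1* (median -0.65, 3 at 2-fold). The exception was *rps4* at 0.30. The strongest ratios came from 1 operon that runs from *rpl23* to *rpoA* and encodes ribosomal proteins and the alpha subunit of the bacterial-type RNA polymerase. Of its 12 genes 7 were measured on their own, and in *Ler* 5 of them were at least 2-fold lower, namely *rpl36* (-2.10), *rpl14* (-1.78), *rpl22* (-1.76), *rpl16* (-1.23) and *rpoA* (-1.16). None reached 2-fold in *hy5-1*, where the median of the 7 was -0.66.

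The per-array values show where that difference arose. For *rpl36* the FR values were 0.03 in *Ler*, -2.07 in *Ler* with MeJA, 0.59 in *hy5-1* and -0.03 in *hy5-1* with MeJA. The median of the 7 genes was 0.05, -1.15, 0.59 and -0.05 on the same arrays, so 1 array, *Ler* with MeJA, lay below the other 3. In darkness the 4 medians were -0.11, -0.14, 0.42 and 0.07. With 1 array per condition, a response of *Ler* seedlings and a property of that array cannot be told apart.

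Of the other RNA polymerase genes, *rpoB* was lower with MeJA in FR light in both genotypes (-0.64 and -0.72) and *rpoC1* in both as well (-0.53 and -0.12). By contrast, *rpoC2* had the highest MeJA ratio of any chloroplast gene in *Ler*, at 0.97, and -0.30 in *hy5-1*. Among the remaining proteins, *clpP*, which encodes a protease subunit, was at -0.65 and -0.09, *matK*, an intron maturase, at 0.07 and -0.44, and *accD*, a subunit of acetyl-CoA carboxylase, at -0.33 and -0.88. In darkness *accD* was higher with MeJA, at 0.87 and 0.64. The *ycf1* and *ycf2* genes had no probe set of their own that could be named.

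**Figure D2:**
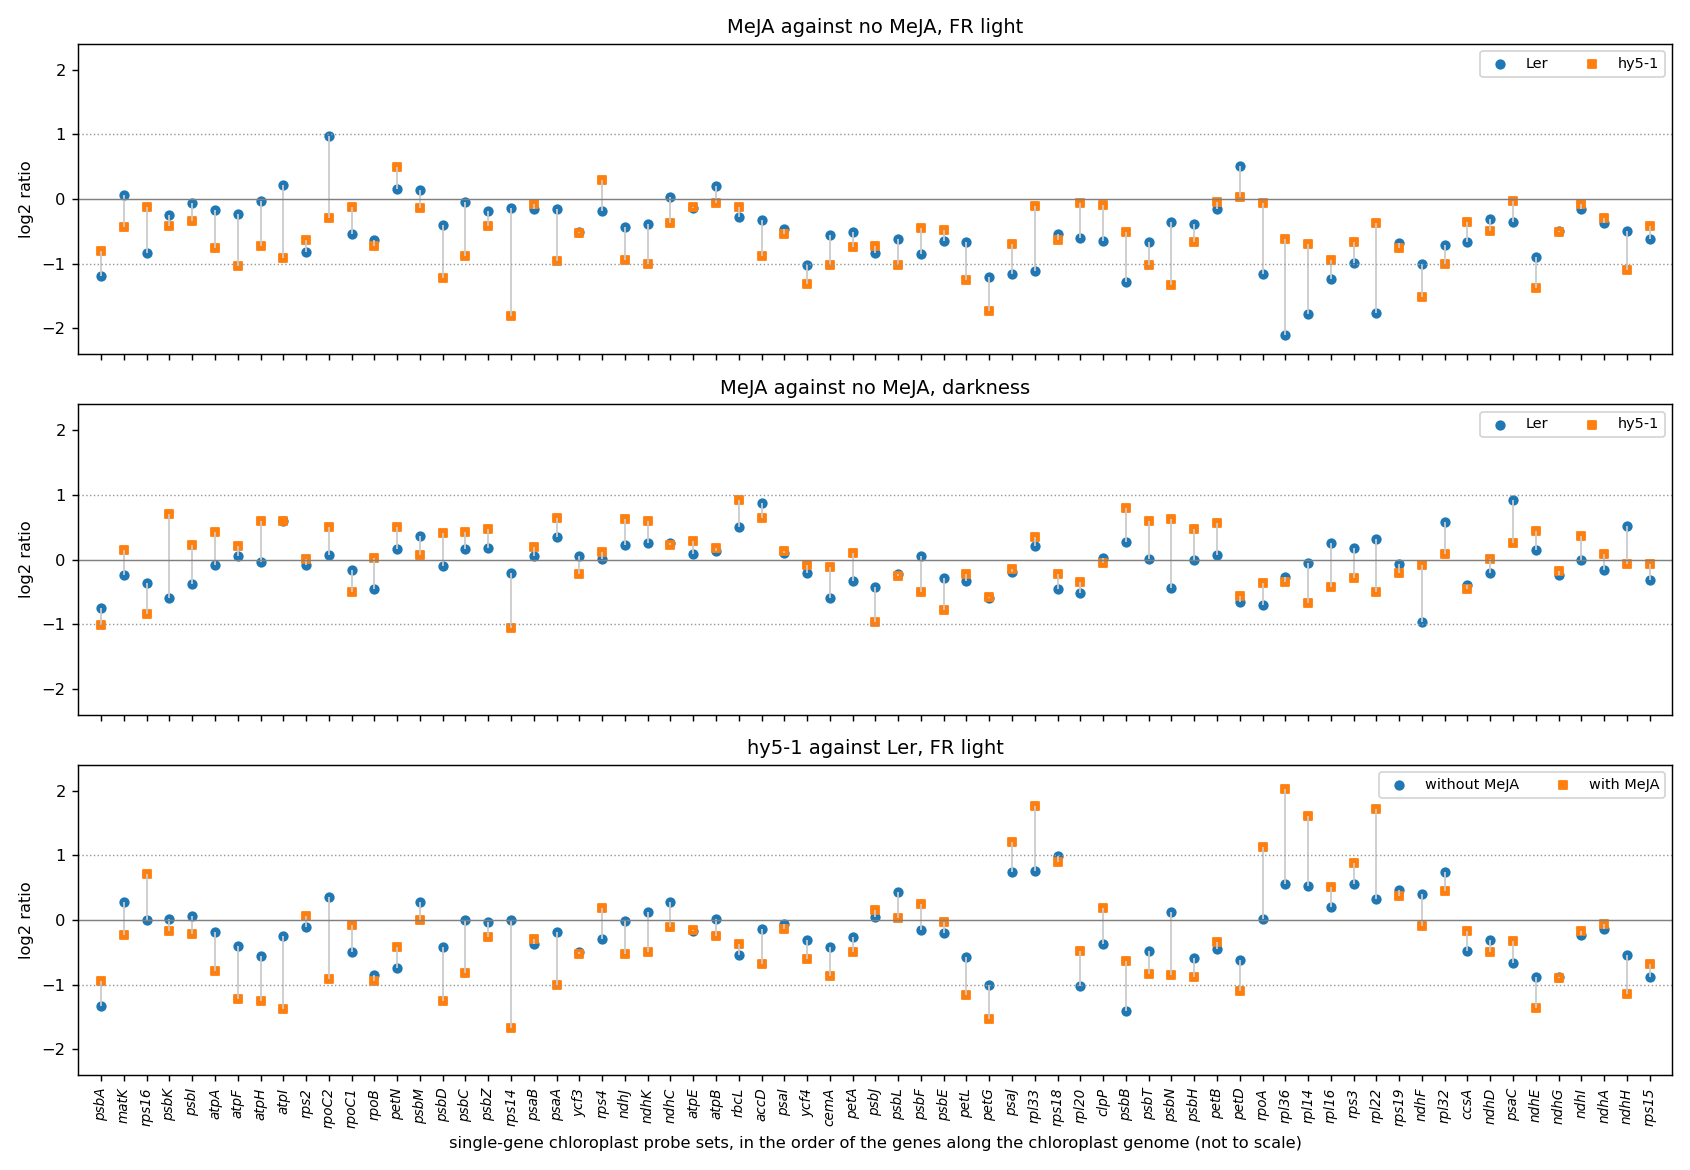
Log2 ratios of the 69 chloroplast probe sets with 1 gene, in the order of the genes along the chloroplast genome (horizontal axis, not to scale), for MeJA in FR light (top), MeJA in darkness (middle) and *hy5-1* against *Ler* in FR light (bottom); grey lines join the 2 ratios of a gene and dotted lines mark 2-fold. In the top panel most points lie below 0, and in the bottom panel the stretch from *rpoA* to *rps19* lies above 0 while *atpA* to *atpI* and *ndhE* to *ndhH* lie below.

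In some operons neighbouring genes had like ratios. Over 10 operons, the median SD of the MeJA ratio within an operon was 0.25 in *Ler* in FR light, against an SD of 0.52 over all 69 genes. The SD within operons was the smaller one in each of the 8 ratios, from 0.16 against 0.30 to 0.49 against 0.80. A median SD of operons with 2 to 7 measured genes tends to fall below that of 69 genes in any case, so it does not measure likeness. In *Ler* in FR light the operons with an SD above 0.52 were *rpoB-rpoC1-rpoC2* (0.90) and *psbB-psbT-psbH-petB-petD* (0.66). Genes of an operon share transcripts, so their probe sets are not independent measurements. There were exceptions, such as *rps14*, a ribosomal protein gene behind *psaA* and *psaB*. On the *hy5-1* FR array with MeJA it stood at -1.74, against 0.07, -0.07 and 0.07 on the other 3 FR arrays, which gave the lowest MeJA ratio of a named gene in *hy5-1* (-1.81).

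Between the genotypes, the groups of chloroplast genes differed in direction, with no test of that difference. The median of the 11 NDH probe sets was below 0 for *hy5-1* against *Ler* in each of the 4 pairs (-0.13 and -0.49 in FR light, -0.38 and -0.14 in darkness), and that of the 6 ATP synthase probe sets was as well. The median of the 20 ribosomal protein probe sets was above that of all probe sets in 3 of the 4 pairs (0.28 in FR light with MeJA, 0.33 and 0.15 in darkness without and with MeJA) and below it in FR light without MeJA (0.02 against 0.05). The medians of photosystem I, photosystem II and the cytochrome b6f complex changed sign between pairs. In FR light 49 of the 77 were lower in *hy5-1* without MeJA (median -0.15) and 54 with MeJA (median -0.26), against medians of 0.05 and 0.02 over all probe sets. In darkness it was 43 without MeJA (median -0.05) and 36 with MeJA (median 0.04). Lower in *hy5-1* in all 4 pairs were 23 (29.9%, against 7.46% of all probe sets) and higher in all 4 were 13 (16.9%, against 9.14%). Genes of an operon share transcripts, and chloroplast values spread less on each array (SD 0.21 to 0.50) than all probe sets (0.68 to 0.77). The 2 sets are thus not alike in spread or independence, which also limits the other shares set beside all probe sets.

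The 23 that were lower comprised 7 of 11 NDH genes, 5 of 6 ATP synthase genes, 3 of 6 cytochrome b6f genes (*petB*, *petG* and *petN*), *psaA*, *psaB*, *psaC*, *psbA*, *rbcL* and 3 of 20 ribosomal protein probe sets. Of the 13 that were higher, 10 were ribosomal protein probe sets, and the others were *psaJ*, *psbJ* and a probe set for 2 gene copies. Limma called no probe set for genotype, among the chloroplast ones or among all 22746, so percent called was 0, and the smallest adjusted p of a chloroplast probe set was 0.692. At an unadjusted p under 0.05, 17 of the 77 (22.1%) passed, 8 higher and 9 lower, against 6.83% of all probe sets. The difference of the genotype effect between the lights was called for none in limma, with 4 of the 77 (5.19%, against 5.56% of all) at an unadjusted p under 0.05, but this fit too found none of the changes planted in simulated data and could not have detected a difference.

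At 2-fold, more of the 77 differed between the genotypes in FR light with MeJA than in the other pairs. There, 11 of the 77 (14.3%) were lower in *hy5-1*, against 9.09% of all probe sets. Higher were 6 (7.79%), against 8.92% of all, which is near the share of the whole table. The 11 were *rps14* (-1.67), *petG* (-1.54), *atpI* (-1.38), *ndhE* (-1.36), *atpH* (-1.25), *psbD* (-1.24), *atpF* (-1.22), *petL* (-1.16), *ndhH* (-1.14), *petD* (-1.10) and *psaA*, just past 2-fold. The 6 were *rpl36* (2.04), *rpl33* (1.76), *rpl22* (1.72), *rpl14* (1.61), *psaJ* (1.21) and *rpoA* (1.13). Of these, *rpl36*, *rpl22*, *rpl14* and *rpoA* belong to the operon that was low on the *Ler* FR array with MeJA. In FR light without MeJA, 5 (6.49%) were 2-fold lower, against 6.85% of all probe sets, and none was higher (9.19% of all were). The lowest were *psbB* (-1.41) and *psbA* (-1.33). In darkness without MeJA, *psbN* was 2-fold lower (-1.01) and *rpl22* 2-fold higher (1.12), each 1.3% of the 77. Of all probe sets, 7.68% were lower and 9.64% higher there. With MeJA in darkness none was 2-fold lower or higher, against 8.06% and 9% of all probe sets.

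The *ndhH*-to-*ndhD* operon, which holds 6 NDH genes and *psaC*, was lower in *hy5-1* in 28 of 28 ratios (7 genes in 4 pairs). Its medians were -0.54 and -0.50 in FR light without and with MeJA, and -0.36 and -0.18 in darkness. For *ndhG* the FR values were 0.69 and 0.20 in *Ler* and -0.20 and -0.71 in *hy5-1*, without and with MeJA. The dark values were 0.29 and 0.06 in *Ler* and -0.06 and -0.23 in *hy5-1*. The genotypes were not separated in every gene, as *ndhA* had FR values of 0.25 and -0.12 in *Ler* and 0.12 and -0.17 in *hy5-1*.

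In the *rpl23*-to-*rpoA* operon the direction was opposite, and 27 of 28 ratios were higher in *hy5-1*. The medians were 0.46 and 1.13 in FR light and 0.54 and 0.28 in darkness. The value of 1.13 used the *Ler* array with MeJA that was low for these genes. The neighbouring genes *psaJ*, *rpl33* and *rps18*, which lie next to each other in another place, were also higher in *hy5-1* in all 4 pairs. For *psaJ*, a small photosystem I subunit, the log2 ratios were 0.75, 1.21, 0.68 and 0.73, with a mean of 0.84 (SE 0.15, n = 4 pairs) and an adjusted p of 0.692 in limma, the smallest among the chloroplast probe sets.

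**Figure D3:**
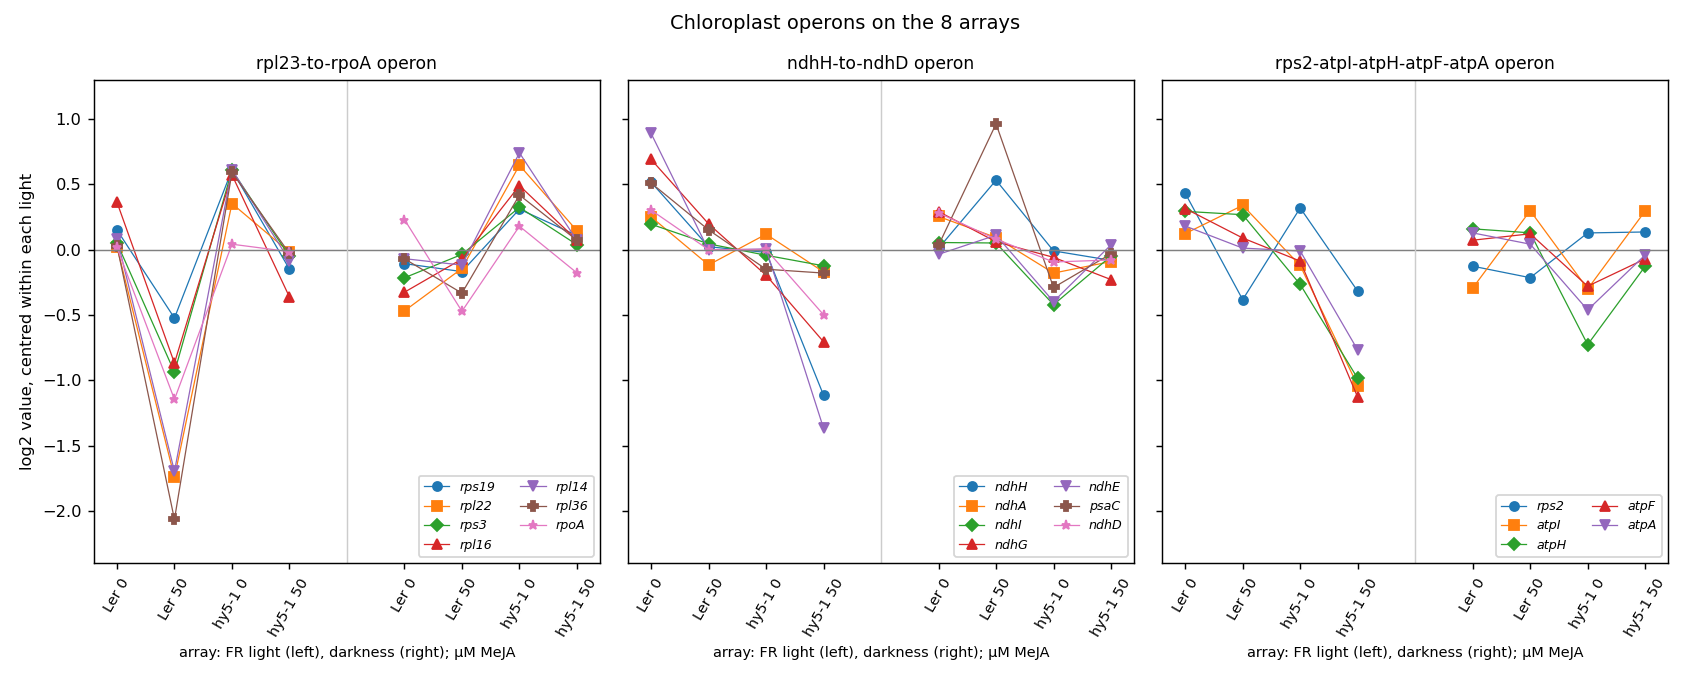
Centred log2 values (vertical axis) of the genes of 3 chloroplast operons on the 8 arrays (horizontal axis), FR light at the left and darkness at the right of each panel, each line joining the values of 1 gene. In the left panel *Ler* with MeJA in FR light lies lowest (median -1.15), in the middle and right panels *hy5-1* with MeJA in FR light does (medians -0.50 and -0.99).

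The mitochondrial probe sets showed no common shift. The 12 comprised subunits of respiratory complex I (*nad4*, *nad4L*, *nad6*, *nad7* and *nad9*), *cox2* of complex IV, the cytochrome c maturation genes *ccb203*, *ccb206*, *ccb382* and *ccb452*, the intron maturase *matR* and *orfX*. Their identifiers were older ones that the RefSeq table did not hold, so they were placed by symbol. With MeJA, 7 of the 12 were lower in each genotype in FR light (medians -0.01 and -0.10) and 5 of the 12 in darkness (medians 0.13 and 0.09). Lower in both FR pairs were 2 of the 12 (16.7%, against 38.3% of all probe sets), *nad4L* and *ccb382*. The limma models called none for MeJA, where 2.7% of all probe sets were called higher and 1.68% lower, or for genotype, where none was. No call among 12 probe sets is thus near the share of all. At an unadjusted p under 0.05, 0 of the 12 passed in either model, against 23.8% of all for MeJA and 6.83% for genotype. In *hy5-1* against *Ler* the medians were -0.16 and -0.19 in FR light and 0.19 and -0.03 in darkness.

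Large ratios came from single genes and mostly from single arrays. *nad7* had dark values of 0.84 in *Ler*, -2.90 in *Ler* with MeJA, -0.05 in *hy5-1* and 0.05 in *hy5-1* with MeJA. The 1 low array gave a MeJA ratio of -3.74 in *Ler* against 0.11 in *hy5-1*. *ccb203* had FR values of 0.72 and -0.06 in *Ler* and -2.45 and 0.06 in *hy5-1*, without and with MeJA. The low array of untreated *hy5-1* gave both the genotype ratio of -3.17 and the MeJA ratio of 2.51. *nad9* had 1 low dark array, untreated *Ler* at -1.75, and a MeJA ratio of 1.91 there. *matR* had 1 high array, *Ler* with MeJA in FR light at 1.46, with values from -0.10 to 0.10 on the other 3. At 2-fold no ratio held more than 2 of the 12 in 1 direction, and 6 of the 12 (50%, against 47.6% of all probe sets) reached it in none of the 8.

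**Figure D4:**
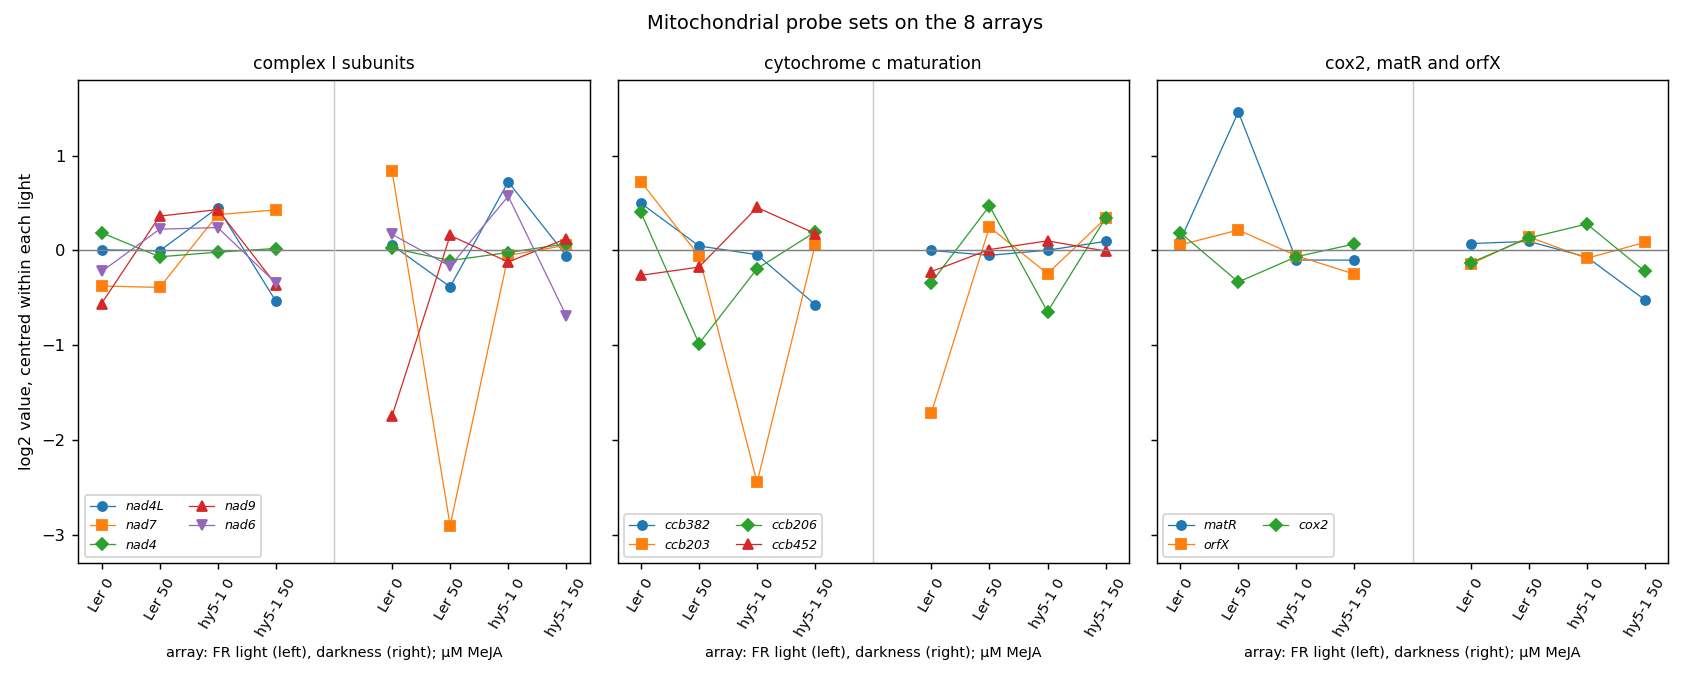
Centred log2 values (vertical axis) of the 12 mitochondrial probe sets on the 8 arrays (horizontal axis), FR light at the left and darkness at the right of each panel, each line joining the values of 1 gene. Most values lie near 0, and the largest departures are single arrays, such as *nad7* at -2.90 and *ccb203* at -2.45.

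Of the 10 probe sets of the block at AT2G26 loci, limma called 3 for MeJA, each higher in all 4 pairs. Among all probe sets 2.7% were called higher. *AR781* had values without and with MeJA of -1.41 and 1.41 in *Ler* and -1.63 and 1.88 in *hy5-1* in FR light, and of -2.00 and 1.53, and -1.53 and 1.92, in darkness. Its mean log2 difference was 3.33 (SE 0.18, n = 4 pairs, limma adjusted p = 0.00727). AT2G26390 was at 2.15 (adjusted p = 0.0261) and AT2G26380 at 2.03 (adjusted p = 0.0394), both in limma. These calls do not concern the organelle genomes. All 3 held after quantile normalization, and each lost its call with a pair left out, except that *AR781* kept it without the *Ler* FR pair (adjusted p = 0.0472). Among the 5 at AT2G07 loci, none was called, and whether they read nuclear or mitochondrial transcripts was not tested.

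The 45 probe sets that were not annotated ranged more widely than the chloroplast ones. Their MeJA ratios in *Ler* in FR light ran from -3.86 to 3.53, with 13 at least 2-fold lower (28.9%, against 11.2% of all probe sets) and 9 higher (20%, against 12.8% of all). In *hy5-1* in FR light 6 were 2-fold lower (13.3%, against 13.4% of all probe sets) and 5 higher (11.1%, against 11.2% of all). The MeJA model called 1.68% of all probe sets lower, and among the 45 it called 1 lower (mean log2 difference -1.05, SE 0.16, n = 4 pairs, limma adjusted p = 0.0459). Its FR values were -0.93 and -2.38 in *Ler* and 1.83 and 0.93 in *hy5-1*, without and with MeJA, so it was lower with MeJA in both genotypes and *hy5-1* lay above *Ler*. In darkness it stood at 0.33 and -0.55 in *Ler* and at 0.63 and -0.33 in *hy5-1*. The call was lost after quantile normalization (adjusted p = 0.056) and with array medians set to 0 (adjusted p = 0.0519).

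The nuclear genes that work with the organelle genes were only thinly covered by the annotation used here, and others may be in the table without a name. None of 6 sigma factors and none of 12 proteins associated with the bacterial-type polymerase had a named probe set. Of 52 nuclear genes for photosynthetic subunits 8 had a probe set annotated with that gene alone. In FR light the median MeJA ratio of the 8 was -0.21 in *Ler* and -0.01 in *hy5-1*, beside -0.49 and -0.62 for the chloroplast probe sets. None of the 8 was called by limma for MeJA or genotype. *LHCB4.3*, an antenna protein gene, was the 1 of the 8 that was lower in all 4 MeJA pairs, at -0.60, -0.75, -0.70 and -0.98. Of 11 nuclear partners of mitochondrial respiration 6 had such a probe set and none was called. *NDB4*, an alternative NADH dehydrogenase, was the 1 of the 6 that reached 2-fold between the genotypes. Its log2 ratios of *hy5-1* to *Ler* were 2.71 and 3.66 in darkness and -1.48 and 0.40 in FR light, without and with MeJA. The limma fit of the difference between the lights called no probe set, but it could not have detected one.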

How the data were processed

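Total RNA of whole seedlings was used to prepare libraries, which were read on 8 ATH1 arrays, 1 per condition, assigned by the labels. The study's methods do not state how the RNA was primed and labelled. Which part of the organelle RNA the arrays read is therefore not known. The deposited table holds log2 values made by the authors with MAS5 (no version given) and GeneSpring GX. How arrays were scaled, any lower limit and the log base were not stated. Values were read as base 2, so each fold rests on that reading. Each probe set was centred at a median of 0 within each light (0 probe sets off by more than 1e-04), so dim probe sets could not be filtered. Precision is limited by the number of arrays.

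Genes came from the platform annotation, updated to RefSeq names (TAIR10.1). Ratios were differences of log2 values within a light, with calls at 2-fold and no p-value. Over all 22746 probe sets, limma 3.58.1 (R 4.3.3) was fitted to the 4 MeJA pairs and the 4 genotype pairs, with a block per pair and 3 residual degrees of freedom, and to their difference between lights with 1. As nothing says which arrays came from separate cultures, p-values measure the spread between pairs, which differ in light, genotype or MeJA. In simulated data, the MeJA model found 2.99%, 40.3% and 76.12% of log2 changes of 1, 2 and 4, and the genotype model 5.97%, 46.27% and 80.6%.

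The members and lists were chosen with earlier results of these data known. Named genes are called members, the 3 highest and 3 lowest of each ratio in each genome and fixed lists of chloroplast and mitochondrial genes. Others, named to complete a count or an operon, were chosen after their values were seen. Figures were drawn with matplotlib 3.10.9.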

Additional observations from a re-analysis of the deposited data

Results flagged for a closer look

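Group medians are given here where both pairs of one light had the opposite sign to both pairs of the other. This is a description of single arrays, and the difference was not tested for the medians. For single probe sets limma called no difference between the lights. That fit found none of the changes planted in simulated data, so its lack of calls decides nothing. For MeJA, the mean of the 2 FR medians minus that of the 2 dark medians was -0.60 for photosystem I (-0.50 and 0.10), -0.69 for the NDH complex (-0.50 and 0.19), -0.62 for ATP synthase (-0.41 and 0.21) and -0.91 for Rubisco, which is *rbcL* alone (-0.20 and 0.71). It was -0.17 for the 12 mitochondrial probe sets (-0.06 and 0.11), where the values lie within the scatter of the probe sets. For *hy5-1* against *Ler*, it was -0.56 for the chloroplast RNA polymerase genes (-0.36 and 0.20) and -0.42 for the other chloroplast proteins (-0.27 and 0.14). For the mitochondrial pair *matR* and *orfX*, the median MeJA ratio was positive in *Ler* (mean 0.46) and negative in *hy5-1* (mean -0.12), a difference of 0.58 that was not tested.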

How the results depend on the processing

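The median of all probe sets lay within 0.09 of 0 in every ratio. Of the chloroplast counts at 2-fold, setting array medians to 0 gave 1 in place of 0 higher for MeJA in *Ler* in FR light, 1 in place of 0 higher for MeJA in *hy5-1* in darkness and 1 in place of 0 lower for *hy5-1* in darkness with MeJA. Quantile normalization gave 1 higher for MeJA in *Ler* in darkness, 1 lower and 2 higher for MeJA in *hy5-1* in darkness, 9 in place of 5 lower and a median of -0.26 in place of -0.15 for *hy5-1* in FR light, and 1 lower for *hy5-1* in darkness with MeJA. At 1.5-fold the chloroplast counts lower with MeJA were 33 and 40 in FR light and 8 and 8 in darkness, and those higher 1 in *Ler* in FR light and 3 and 12 in darkness. Lower in *hy5-1* at 1.5-fold were 13 and 26 in FR light and 6 and 3 in darkness, and higher 5 in FR light without MeJA and 7 and 1 in darkness. Without the probe sets ending in _s_at, the mitochondrial medians moved to -0.35 and 0.044 for MeJA in FR light, and to 0.10 and 0.12 for *hy5-1* with MeJA in FR light and in darkness. The MeJA model called 3 of the 150 in place of 5 under either scaling and from 0 to 1 with a pair left out, and 29 at an unadjusted p under 0.05, where the genotype model gave 25. No paired analysis by replicate number was possible because each condition had 1 array. No chloroplast or mitochondrial probe set had tied lowest values. The scalings of the fits by light, of the operons and of the count lower in both FR pairs were chosen after seeing the data.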
